A study of Mus musculus with 2 samples.

Results

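The signal transducers and activators of transcription (STAT factors) Stat2, Stat3, Stat4, Stat5a, Stat5b and Stat6 and the Janus kinases Jak1, Jak2 and Tyk2 were described, 9 genes of the 55536 annotated genes in the tables. They were chosen by symbol and not by a threshold on measured values, and all 9 were matched by gene identifier in every table; other genes of the 2 families were not analysed here. RNA came from bone marrow derived macrophages of C57BL/6J mice that were treated for 10 min with Lipid A, the Toll-like receptor 4 agonist part of bacterial lipopolysaccharide, at 100 ng/ml. The fraction is named nucleoplasmic in one label field and nucleus in another. Both libraries belong to this 1 group: replicate 1 was made from a starting quantity of 1 µg and replicate 2 from 500 ng, ribosomal RNA was depleted, and all the differences between libraries below are given as replicate 1 minus replicate 2. The labels give separate biosamples under 1 donor identifier and do not say whether separate animals were used, and the replicate spread may therefore be technical in part. Untreated cells were not analysed here, so the levels say nothing of induction. Annotated genes took 19153465 expected counts in replicate 1 and 11622346 in replicate 2.

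In the JAK-STAT pathway a cytokine brings together receptor chains that carry Janus kinases on their inner side. The kinases phosphorylate each other, the receptor and the STAT factors that dock on it, and the phosphorylated STAT factors pair and act in the nucleus as DNA-binding regulators of transcription. In macrophages, type I interferons signal through Jak1 and Tyk2 to Stat2 and its partners, interleukin 10 and interleukin 6 family cytokines through Stat3, interleukin 4 and interleukin 13 through Stat6, and granulocyte-macrophage colony stimulating factor through Jak2 and Stat5a and Stat5b.

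The first sequences shown are those that set the main transcript forms apart, read from the GENCODE M21 transcripts of mm10. The coding forms of Stat3, alpha (model Stat3-203, 770 codons) and beta (Stat3-202, 722 codons), part at exon 23 (minus strand), which covers chr11:100889478-100889590 in Stat3-203 and chr11:100889478-100889540 in Stat3-202. Each line has the last 25 bases of exon 22 and the start of exon 23, and the capitals are the 50 bases that only Stat3-203 keeps.
Stat3-203: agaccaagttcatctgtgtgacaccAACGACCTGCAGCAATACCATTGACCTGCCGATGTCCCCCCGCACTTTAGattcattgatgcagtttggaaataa
Stat3-202: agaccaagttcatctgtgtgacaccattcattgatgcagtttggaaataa

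The next lines show where retained-intron models, annotated noncoding transcripts that read on from an exon into an intron, leave the spliced form. Each line has 30 exon bases in lower case and the first 30 intron bases in capitals, on the plus strand. In Stat2-206 the intron bases are those of intron 4 of the coding model Stat2-201 at chr10:128277219-128277248. In Stat6-205 they are those of intron 16 of Stat6-201 at chr10:127657703-127657732.
Stat2-206: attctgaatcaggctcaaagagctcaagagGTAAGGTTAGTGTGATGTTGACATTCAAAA
Stat6-205: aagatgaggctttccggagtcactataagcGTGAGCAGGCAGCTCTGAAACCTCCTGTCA

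Stat5a and Stat5b lie 8626 bases apart on chromosome 11 on opposite strands and are near-identical copies in part of their coding sequence. Of the 31-base words in the coding sequence, 836 were shared, 35.6% of those of Stat5a and 35.9% of those of Stat5b, whereas no such word was shared by any other pair of the STAT factors or of the Janus kinases. The longest identical run had 324 bases and began in codon 191 of both genes. Its first 300 bases are shown because a read from them cannot be placed by sequence in 1 of the 2 genes. They span 3 exons at chr11:100874023-100874959 (plus strand) for Stat5a and at chr11:100797765-100798701 (minus strand) for Stat5b.
Stat5a and Stat5b shared run: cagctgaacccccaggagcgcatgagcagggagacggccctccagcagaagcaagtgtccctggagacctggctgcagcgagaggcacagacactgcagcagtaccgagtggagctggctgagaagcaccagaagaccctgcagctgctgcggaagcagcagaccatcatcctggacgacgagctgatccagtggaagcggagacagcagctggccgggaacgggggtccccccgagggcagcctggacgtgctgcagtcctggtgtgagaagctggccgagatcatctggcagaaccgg

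Start regions were taken from the RefSeq windows of build GRCm38.p6, which hold 250 bases before and 50 bases after a start; all 9 genes matched, with 12 windows. The interferon-stimulated response element core was searched as GAAANNGAAA on both strands and stood in 3.44% of 32851 windows, among them 1 window of Stat2 and 1 of 2 windows of Stat4. The gamma-activated site TTCNNNGAA, which also reads the same on the other strand, stood in 8.30% of windows and in none of the 12. The bases printed lie before the start to which the window belongs, with GAAANNGAAA matches on either strand in capitals. The Stat2 part is chr10:128270248-128270497 (plus strand), where the match begins 222 bases before the start, and the Stat4 part is chr1:52007990-52008239 (plus strand), where it begins 97 bases before. This Stat4 window belongs to the inner of the 2 Stat4 starts and so lies inside the longer gene model. A match is a description of letters and not a sign of binding, and the pair is shown because it holds the most and the least abundant of the 9 genes.
Stat2 upstream: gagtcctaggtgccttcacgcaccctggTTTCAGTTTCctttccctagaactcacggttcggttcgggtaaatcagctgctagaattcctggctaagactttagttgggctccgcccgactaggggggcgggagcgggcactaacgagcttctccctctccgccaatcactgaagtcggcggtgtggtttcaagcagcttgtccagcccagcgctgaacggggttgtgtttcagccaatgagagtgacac
Stat4 upstream: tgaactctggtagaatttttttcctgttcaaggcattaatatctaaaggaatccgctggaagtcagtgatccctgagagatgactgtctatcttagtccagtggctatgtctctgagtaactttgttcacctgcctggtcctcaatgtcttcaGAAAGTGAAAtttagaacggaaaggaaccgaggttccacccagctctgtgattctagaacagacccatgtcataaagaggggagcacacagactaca

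Stat5b had windows at both of its annotated starts (minus strand). The outer window was 82.7% G or C with 50 CpG dinucleotides, and the inner window, inside intron 1 of the longer gene model, was 47.3% G or C with 7. The printed parts are chr11:100850725-100850831 for the outer start and chr11:100822571-100822820 for the inner start. They are shown because the models from these starts were weighted unequally in the libraries, as described with the Stat5b models further on.
Stat5b outer start: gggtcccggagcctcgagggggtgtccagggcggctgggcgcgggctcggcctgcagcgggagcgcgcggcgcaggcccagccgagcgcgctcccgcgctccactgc
Stat5b inner start: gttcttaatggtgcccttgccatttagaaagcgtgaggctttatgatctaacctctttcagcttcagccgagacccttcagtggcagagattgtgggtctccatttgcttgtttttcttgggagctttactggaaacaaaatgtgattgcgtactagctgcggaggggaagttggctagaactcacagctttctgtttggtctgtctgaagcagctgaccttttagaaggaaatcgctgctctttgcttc

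RNA of 8 of the 9 genes was detected at 1 TPM (the abundance unit that divides counts by transcript length and by the library's sum) or more in both libraries, and the levels reached over 2 orders of magnitude. Of all annotated genes 23.6% were detected by this rule, and of protein-coding genes 46.0%. The median of the mean levels was 25.6 TPM for the 9 genes and 10.5 TPM for the 10123 detected protein-coding genes. Values are given first from the deposited gene tables. TPM is per length, so that levels can be compared between genes, with a limit. The TPM of a gene sums its transcript models, and short models weigh more in TPM than in counts. Models not annotated protein_coding held 45.4% of Stat2 TPM but 10.9% of its counts, and 0% of both for Jak2. The order and the folds below therefore rest in part on such models. In these bulk samples, fewer cells that express a gene and less RNA per cell cannot be told apart.

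Stat2, the STAT factor of the type I interferon complex that binds the response element together with Irf9, had the highest level of the family. It had 101 TPM in replicate 1 and 102 TPM in replicate 2 (101.7 ± 0.467, SD, n = 2; chr10:128270559-128292849, plus strand). The libraries lay within 1% of each other on this scale, and the gene stood above 98.5% of protein-coding genes in replicate 1 and above 98.7% in replicate 2. Stat6, the factor of interleukin 4 and interleukin 13 signalling and of alternative macrophage activation, was next, with 60.2 TPM in replicate 1 and 70.5 TPM in replicate 2 (65.4 ± 7.28; chr10:127642986-127660957, plus strand). Its mean was below that of Stat2 by a factor of 1.56, and the ranges of the libraries did not overlap. Stat3, the factor of interleukin 10 and interleukin 6 signalling, had 29.97 TPM in replicate 1 and 21.3 TPM in replicate 2 (25.6 ± 6.12; chr11:100885098-100939540, minus strand). Its libraries stood farthest apart relative to the mean, with a coefficient of variation of 23.9%.

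The paired genes Stat5a and Stat5b, factors of granulocyte-macrophage colony stimulating factor signalling, were lower. Stat5b had 12.6 TPM in replicate 1 and 11.8 TPM in replicate 2 (12.2 ± 0.608; chr11:100780731-100850724, minus strand). Stat5a had 8.77 TPM in replicate 1 and 6.93 TPM in replicate 2 (7.85 ± 1.301; chr11:100859351-100885169, plus strand). Stat5b was the higher of the pair in both libraries, 1.44-fold over Stat5a in replicate 1 and 1.70-fold in replicate 2, and the second quantification gave 1.46-fold and 1.65-fold in the same order. The deposited posterior standard deviation of the count was 3.18 counts in replicate 1 and 1.58 counts in replicate 2 for each of the 2 genes. Expected counts were 593 and 341 for Stat5a and 1249 and 713 for Stat5b. This standard deviation was 0 for 5 of the other members, but 3.73 and 1.52 counts for Tyk2 and 0.590 and 0.580 counts for Stat4. A value above 0 is therefore not particular to the pair. Among the members above 0, only Stat5a and Stat5b had equal values within a library, and the reason was not tested.

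Stat4, the factor of interleukin 12 signalling in T and NK cells, was the only member below the detection level. It had 0.800 TPM from 31.8 expected counts in replicate 1 and 0.620 TPM from 17.0 expected counts in replicate 2 (0.710 ± 0.127 TPM; chr1:51987148-52107189, plus strand). The deposited intervals of the 2 libraries, 0.573 to 1.52 TPM and 0.417 to 1.35 TPM, both held the detection level, so at this depth the gene could not be placed firmly on either side. Stat2 was 143-fold higher than Stat4 in the gene tables and in the second quantification alike. Beside Stat4, none of 11 T and NK cell markers was detected in the gene tables, with a sum of 0.120 TPM (replicate 1) and 0.260 TPM (replicate 2). The T cell receptor chain genes Cd3e and Trac and the T-bet gene Tbx21 were listed at 0 TPM in both, and 7 of the 11 markers had 0 counts in both, where a count of 0 allows up to 3 counts. The second quantification gave Cd3d, another chain of that receptor complex, 2.53 TPM in replicate 1 and 10.1 TPM in replicate 2, so the quantifications differed on that marker. The part of other cells in the Stat4 level was not tested.

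Among the kinases, Tyk2, the partner of Jak1 at interferon and interleukin 10 receptors, had 39.5 TPM in replicate 1 and 34.0 TPM in replicate 2 (36.8 ± 3.90; chr9:21104068-21131243, minus strand). Jak1, which serves most of the receptors named here, had 38.3 TPM in replicate 1 and 28.7 TPM in replicate 2 (33.5 ± 6.80; chr4:101152367-101265282, minus strand). The ranges of Tyk2 and Jak1 overlapped, as did those of Jak1 and Stat3, so these neighbours were not separated beyond their spread. Jak2, the kinase of receptors that share the beta common chain and of the interferon gamma receptor, had 10.4 TPM in replicate 1 and 11.3 TPM in replicate 2 (10.8 ± 0.643; chr19:29251828-29313080, plus strand). Jak1 was higher than Jak2 3.68-fold in replicate 1 and 2.54-fold in replicate 2, and the groups did not overlap. By mean level in the gene tables, the order was Stat2, Stat6, Tyk2, Jak1, Stat3, Stat5b, Jak2, Stat5a and Stat4. The ranges of the other neighbours in it did not overlap, but each range holds only 2 libraries. In replicate 2 the deposited intervals of Stat5b (9.78 to 12.5 TPM) and Jak2 (9.93 to 11.6 TPM) overlapped, while in replicate 1 they did not. Those of Jak2 (9.44 to 10.7 TPM) and Stat5a (7.74 to 10.4 TPM) overlapped in replicate 1 and not in replicate 2. Taken alone, the coding model with most counts averaged 25.7 TPM for Jak1 and 17.1 TPM for Tyk2, the reverse of their order here. By that measure Jak2 (10.8 TPM) also stood above Stat3 (9.03 TPM) and Stat5b (6.77 TPM), which have further coding models with counts. The middle of the order therefore depends on which models are summed.

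**Figure D1:**
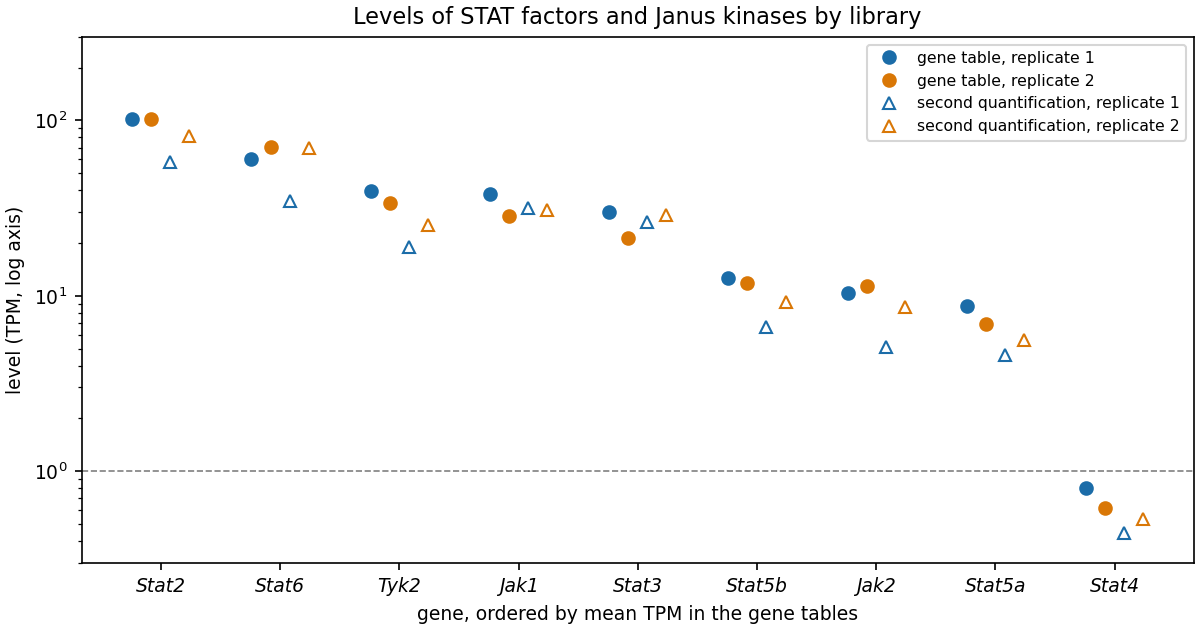
Level of each gene in TPM (log axis) in replicate 1 (blue) and replicate 2 (orange), in the gene tables (circles) and in the second quantification (triangles); the dashed line marks 1 TPM. Stat2 and Stat6 are highest, and Stat4 is the gene below the line in all 4 series.

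The second quantification, a separate transcript table deposited for each library and summed here per gene, kept the same genes at the top and the bottom but placed the kinases otherwise. It gave Stat2 57.9 TPM in replicate 1 and 81.5 in replicate 2, and Stat6 34.9 and 69.6 TPM in the same order, so that these ranges overlapped. Jak1 had 31.7 TPM in replicate 1 and 30.95 TPM in replicate 2. Tyk2 had 19.1 TPM in replicate 1 and 25.4 TPM in replicate 2, below Jak1 in both libraries, in contrast to the gene tables, where Tyk2 had the higher mean. Stat3, with 26.4 TPM in replicate 1 and 28.9 TPM in replicate 2, was above Tyk2 here. Stat5b (6.67 and 9.26 TPM), Jak2 (5.10 and 8.58 TPM) and Stat5a (4.57 and 5.60 TPM) kept the order of the gene tables, with ranges that overlapped between neighbours. Stat4 was listed at 0.445 TPM in replicate 1 and 0.531 TPM in replicate 2.

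No member differed more than 2-fold in mean TPM between the quantifications. Over the 19574 genes with a mean of 1 TPM or more in either, 4.10% were more than 2-fold higher in the gene tables and 30.7% were more than 2-fold higher in the second quantification. On the log2 scale with a pseudocount of 0.1, the gene tables were above the second quantification for 8 of the 9 members, with a median of 0.55 over the members and 0.40 over protein-coding genes past the same filter. Tyk2 stood farthest above (0.72) and Stat3 was the exception (-0.11). In replicate 1 alone the excess of the gene tables was just over 2-fold for Tyk2 (log2 1.05) and Jak2 (log2 1.01). In replicate 2 alone it was 0.42 for Tyk2 and 0.39 for Jak2. Much of TPM lay outside protein-coding genes: these held 30.9% of TPM in replicate 1 and 29.5% in replicate 2 of the gene tables, and 18.0% and 24.9% in the second quantification. When TPM was rescaled to protein-coding genes in both tables, the difference was -0.64 for Stat3, -0.44 for Jak1 and between -0.13 and 0.22 for the other 7 members.

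Between the libraries no member was more than 2-fold apart, by expected counts scaled with edgeR's TMM factors and 1 added as a pseudocount; a gene was counted if it averaged 50 scaled counts or more, which 8 members did. By the same rule 1.45% of 11526 genes were more than 2-fold higher in replicate 1 and 0.469% were more than 2-fold higher in replicate 2, so a count of 0 among 8 members is near the background. The median log2 difference was 0.06 for the 8 members and 0.00 for all genes, and the median of its absolute size was 0.20 for both. With 1 library on each side there is no test, and the intervals given here are 95% exact binomial (Clopper-Pearson) intervals for the counting error only.

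Stat3 (log2 0.31, interval 0.19 to 0.43), Jak1 (0.28, interval 0.19 to 0.37) and Tyk2 (0.16, interval 0.07 to 0.26) were higher in replicate 1 by more than the counting error. Stat2 (-0.21, interval -0.27 to -0.15), Jak2 (-0.23, interval -0.37 to -0.10) and Stat6 (-0.18, interval -0.26 to -0.11) were lower in replicate 1 by more than the counting error. Stat5b (0.06, interval -0.07 to 0.20) and Stat5a (0.05, interval -0.14 to 0.25) were not separated. Stat4, which was under the filter, had a difference of 0.15 with an interval of -0.72 to 1.11, which also holds a 2-fold excess. The estimated counts of the second quantification gave all 9 differences the same sign, between -0.20 for Stat6 and 0.28 for Stat3. None of these differences stands out among genes: that of Stat3, the largest in size, exceeded those of 68.7% of all genes that passed.

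**Figure D2:**
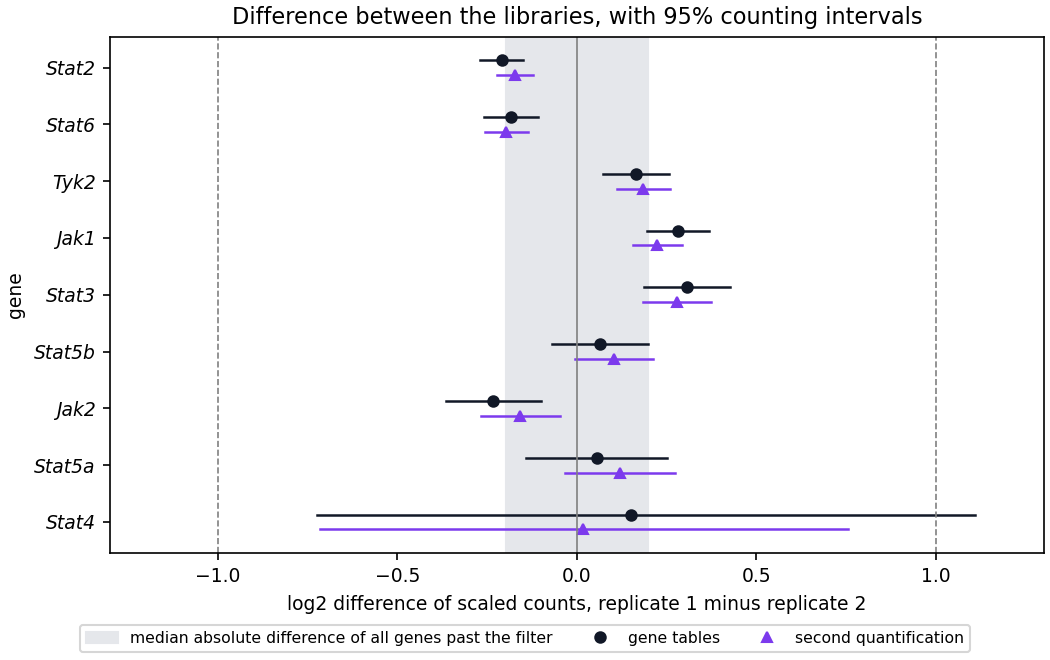
Log2 difference of TMM-scaled counts, replicate 1 minus replicate 2, for each gene in the gene tables (circles) and in the second quantification (triangles), with lines for the 95% counting intervals. Stat3, Jak1 and Tyk2 lie right of 0 and Stat2, Stat6 and Jak2 left of it; the grey band spans the median absolute difference of all genes (0.20) and the dashed lines mark 2-fold.

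The sign of a TPM difference depended on the table. Of the 9 members, 6 had more TPM in replicate 1 in the gene tables, and 1, Jak1, in the second quantification. Protein-coding genes as a whole moved likewise: their median log2 TPM ratio, replicate 1 over replicate 2, was 0.10 in the gene tables and -0.45 in the second quantification, whereas scaled counts gave medians of 0.00 and 0.03. The log2 TPM ratio of Stat6 in the second quantification, -0.998, was -0.55 relative to that median, and those of Stat2 (-0.49) and Stat5b (-0.47) are close to it. Macrophage markers also differed between the libraries: all 8 were detected, 7 had more scaled counts in replicate 1, their median log2 difference was 0.61, and their sum was 3660 TPM (replicate 1) and 2238 TPM (replicate 2). The part of this in the differences of the members was not tested.

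The 9 genes have 59 annotated transcript models, of which 27 are annotated protein_coding, 22 retained_intron and 10 processed_transcript, a class without an open reading frame. The retained-intron models belong to 5 of the genes. Models not annotated protein_coding held a median of 34.0% of the members' TPM, against 32.7% over 9371 detected protein-coding genes with more than 1 model. The same share of expected counts was 10.9% for the members and 15.9% for those genes. TPM divides by length, and the retained-intron models had a median length of 741.5 bases, against 3888 for the coding models. Their lengths ran from 341 to 4444 bases, the longest being Tyk2-202. A read from an intron that has not yet been spliced out can be assigned to such a model, and in a nuclear fraction the part of unspliced RNA in these shares was not tested.

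Among the STAT factors the share of TPM was larger in those with retained-intron models, which the share includes by definition. Stat6, at the 51.9th percentile of the 9371 genes, was near their median. In Stat3 models not annotated protein_coding held 52.8% of TPM in replicate 1 and 49.7% in replicate 2 (51.3 ± 2.20), in Stat2 47.4% and 43.4% (45.4 ± 2.82), in Stat4 45.6% and 39.3% (42.5 ± 4.402), and in Stat6 29.4% and 38.7% (34.0 ± 6.51). Among the kinases the share was 34.1% in replicate 1 and 41.6% in replicate 2 for Tyk2 (37.8 ± 5.30) and 20.3% and 22.1% for Jak1 (21.2 ± 1.32). It was 21.2% and 20.8% for Stat5a (20.97 ± 0.308) and 11.9% and 17.3% for Stat5b (14.6 ± 3.81). Jak2, with 4 models that are all annotated protein_coding, had none. Set against the 9371 genes, Stat3 stood highest, at the 73.6th percentile of this share, so no member was extreme. By expected counts the order was another: Tyk2 (21.7 ± 6.27%), Stat5a (18.9 ± 1.27%), Stat4 (17.3 ± 1.23%), Stat3 (13.8 ± 0.386%) and Stat2 (10.9 ± 0.768%) came before Jak1 (7.27 ± 1.54%), Stat6 (6.67 ± 2.08%) and Stat5b (1.73 ± 0.545%).

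**Figure D3:**
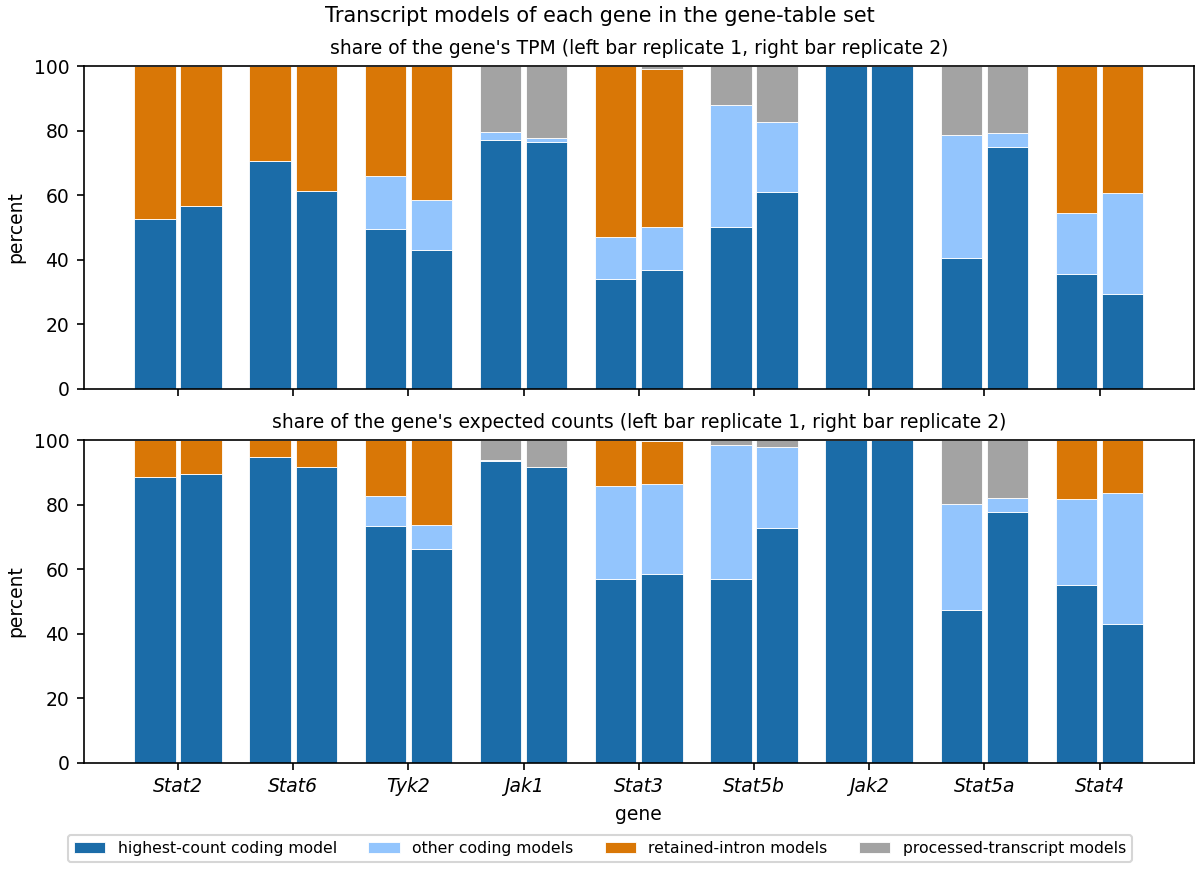
Share of each gene's TPM (upper panel) and expected counts (lower panel), in percent, held by the coding model with most counts, other coding models, retained-intron models and processed-transcript models; the left bar of each pair is replicate 1 and the right bar replicate 2. Retained-intron models hold 47.4% and 43.4% of Stat2 TPM but 11.5% and 10.4% of its counts, and Jak2 is a single coding model in both panels.

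Of the 59 models, 35 held 10% or more of their gene's TPM in at least 1 library of either quantification and are described, gene by gene. The other 24 held at most 9.53% in the gene-table set, and 10 models were listed at 0 TPM there in both libraries. A model's value is an estimate by the authors' programs of how reads that fit several models were divided. In the gene-table set 23 models passed a mean of 50 scaled counts. Of these, Stat5a-203 was more than 2-fold higher in replicate 1 and Stat6-205 more than 2-fold higher in replicate 2, beside 5.35% and 5.76% of all 22492 models past that filter. Both also fall under the rule of 10% by which models are named. The deposited TPM intervals of the libraries did not overlap for 6 of the 35: Jak1-201, Stat2-206, Stat3-203, Stat5b-201, Stat6-205 and Tyk2-203.

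Stat2 was carried by 1 coding model, Stat2-201 (922 codons, 24 exons), with 53.3 TPM in replicate 1 and 57.7 TPM in replicate 2, which took 88.5% and 89.6% of the gene's counts. Stat2-202, whose coding sequence is 1 codon longer, was listed at 0. The retained-intron model Stat2-206, which enters intron 4, had 18.9 TPM in replicate 1 (deposited interval 15.2 to 20.997) and 13.0 TPM in replicate 2 (9.35 to 15.1), so it was the higher in replicate 1. Stat2-204, which holds all 109 bases of intron 9 and 160 bases of intron 10, had 8.31 TPM in replicate 1 and 11.3 in replicate 2, and Stat2-203, with 296 bases of intron 13, had 4.99 and 3.09 TPM. In the second quantification Stat2-201 had 20.9 TPM in replicate 1 and 36.5 in replicate 2, and Stat2-206 had 12.7 and 10.6 TPM. The coding model thus held 36.1% of Stat2 TPM in replicate 1 and 44.8% in replicate 2 there, against 52.6% and 56.6% in the gene-table set.

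Stat6 was likewise carried by 1 coding model, Stat6-201 (837 codons, 22 exons), with 42.5 TPM in replicate 1 and 43.3 TPM in replicate 2. Among its models the largest TPM difference between the libraries was that of the retained-intron model Stat6-205, which holds 163 bases of intron 13 and 226 bases of intron 16 and whose boundary is printed among the sequences. It had 6.82 TPM in replicate 1 (interval 5.11 to 8.11) and 14.8 TPM in replicate 2 (interval 11.3 to 16.3), from 82.9 and 119 expected counts. These intervals did not overlap, and the log2 difference of scaled counts was -1.25. The second quantification gave the same direction, with 6.94 TPM in replicate 1 and 27.9 in replicate 2 and a log2 difference of scaled counts of -1.56. Stat6-204, which holds the whole 77 bases of intron 21, had 9.33 TPM in replicate 1 and 10.8 in replicate 2, and its intervals overlapped.

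For Stat3 the alpha form, with the transactivation domain at its end, exceeded the beta form, which lacks it, in every table. Stat3-203 (alpha) had 10.2 TPM in replicate 1 (interval 8.64 to 10.5) and 7.86 TPM in replicate 2 (interval 5.86 to 7.97). Stat3-202 (beta) had 3.73 TPM in replicate 1 and 2.66 TPM in replicate 2. The ratio of alpha to beta was 2.73 in replicate 1 and 2.95 in replicate 2, and the second quantification gave 4.15 and 3.08, so alpha held between 73.2% and 80.6% of the pair. The 50 capital bases are not all that parts the models. Stat3-202 has 1712 further bases after its coding sequence and Stat3-203 has 136 of its own before it, so the split also rests on reads from the untranslated ends. Retained-intron models Stat3-208 (2.85 TPM in replicate 1 and 2.16 TPM in replicate 2), Stat3-204 (2.47 and 2.43 TPM) and Stat3-205 (2.01 and 1.66 TPM) took part in the noncoding share. Stat3-214, a processed transcript of 9 exons, was listed at 0 TPM in replicate 1 and 0.200 TPM in replicate 2 of the gene-table set but at 4.96 and 6.07 TPM in the second quantification, 18.8% and 21.001% of the gene there.

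The coding models of Stat5b share all 786 codons and differ in the first exon alone, at starts 28196 bases apart. Stat5b-202, from the inner start, had 6.34 TPM in replicate 1 and 7.19 TPM in replicate 2. Stat5b-201, from the outer start in the CpG-rich window, had 4.79 TPM in replicate 1 (interval 3.67 to 5.57) and 2.54 TPM in replicate 2 (interval 1.41 to 3.31). The inner over outer ratio was 1.32 in replicate 1 and 2.83 in replicate 2, and it was 3.15 and 5.64 in the second quantification, so Stat5b-202 was the higher in all 4 cases. The short processed transcript Stat5b-203 also begins in the first exon of the outer start, with 1.5 TPM in replicate 1 and 2.03 TPM in replicate 2. With its TPM added to the outer start, the ratio was 1.01 in replicate 1 and 1.57 in replicate 2, and 1.26 and 1.65 in the second quantification, so the size of the excess depended on that model. The models are told apart by 477 bases of their own for Stat5b-202 and 326 for Stat5b-201. The first exon of Stat5b-202 lies inside an intron of Stat5b-201, so unspliced RNA from the outer start can also give reads there, and its part was not tested.

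Stat5a was divided otherwise in the 2 libraries. Stat5a-202 (793 codons) had 3.56 TPM in replicate 1 and 5.20 TPM in replicate 2. Stat5a-203 (797 codons), whose start lies 828 bases further on, had 2.25 TPM from 171 expected counts in replicate 1 (interval 0.922 to 3.42) and 0.300 TPM from 14.5 expected counts in replicate 2 (interval 0.0281 to 1.199). The log2 difference of its scaled counts was 2.75, and 1.66 in the second quantification, but the deposited TPM intervals overlapped. All exon bases of Stat5a-203 lie within exons of Stat5a-202, which has 133 bases more, so Stat5a-203 has no exon base of its own. It has 18 exons against 20, and reads across exon junctions of its own may also set it apart, which was not tested. Stat5a-206, another coding model, had 0.910 TPM in replicate 1 and was listed at 0 TPM in replicate 2. The processed transcript Stat5a-207, which runs through introns 7 to 11 whole, had 1.31 TPM in replicate 1 and 1.07 in replicate 2, and Stat5a-205 had 0.550 and 0.370 TPM. For Stat4, the coding models Stat4-201 (0.280 TPM in replicate 1 and 0.180 in replicate 2) and Stat4-202 (0.150 and 0.190 TPM) and the retained-intron models Stat4-203 (0.290 and 0.240 TPM) and Stat4-204 (0.0700 and 0 TPM) had intervals that overlapped between the libraries.

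Tyk2 read mainly as Tyk2-203 (1184 codons), with 19.6 TPM in replicate 1 (interval 16.8 to 19.5) and 14.6 TPM in replicate 2 (interval 11.2 to 14.2), which leave out the TPM itself because they surround the deposited posterior mean. The longer coding models of 1207 codons, which keep 69 coding bases that Tyk2-203 lacks, were low in replicate 1 and listed at 0 in replicate 2 in both quantifications. Tyk2-201 had 0.690 TPM from 67.7 expected counts in replicate 1, which was 2.49% of the gene's counts there, and Tyk2-206 was listed at 0. The second quantification gave Tyk2-203 8.51 TPM in replicate 1 and 10.8 in replicate 2. In replicate 1 it gave Tyk2-201 35.2 and Tyk2-206 30.9 estimated counts (0.125 and 0.104 TPM). Tyk2-204, a retained-intron model with 1120 bases of intron 2, was next with 11.4 TPM in replicate 1 and 10.7 TPM in replicate 2. The short coding model Tyk2-205 (159 codons) had 5.79 TPM in replicate 1 and 5.27 TPM in replicate 2. Tyk2-202, which keeps introns 11 and 12, had 2.09 TPM in replicate 1 and 3.48 TPM in replicate 2.

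Jak1 counts fell almost wholly on Jak1-201 (1153 codons), 93.7% in replicate 1 and 91.6% in replicate 2, with 29.5 TPM (interval 26.98 to 28.96) and 21.9 TPM (interval 19.2 to 21.3). The processed transcript Jak1-205 had 4.51 TPM in replicate 1 and 4.75 TPM in replicate 2. The quantifications disagreed on the fragment Jak1-206 (421 bases, 18 codons annotated), which had 1.04 TPM in replicate 1 and 0.370 TPM in replicate 2 of the gene-table set but 9.72 and 5.46 TPM in the second quantification, 30.7% and 17.7% of the gene there. Jak1-202, a processed transcript of 374 bases, was listed at 0 in the gene-table set and had 3.96 TPM in replicate 1 and 3.66 TPM in replicate 2 in the second quantification. Jak2 was the simplest of the 9. Jak2-202 (1132 codons) took all of its counts in the gene-table set, and the second quantification gave it 79.7% of TPM in replicate 1 and 80.2% in replicate 2 beside 14.1% and 16.01% for Jak2-203 (638 codons).

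**Figure D4:**
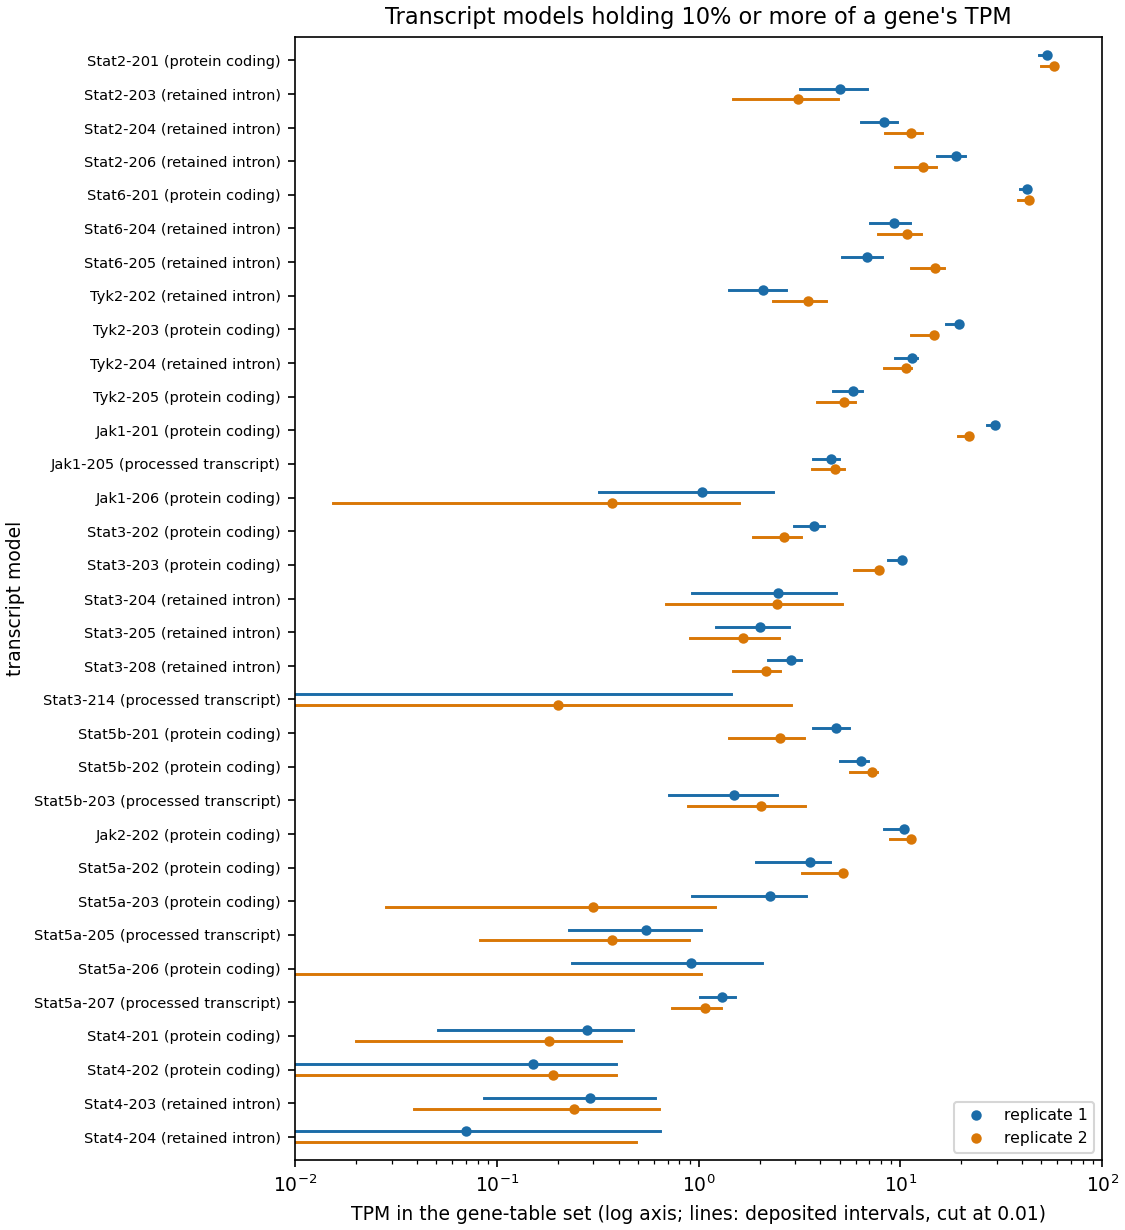
TPM (log axis) of the 33 described transcript models that were above 0 in the gene-table set, with points for replicate 1 (blue) and replicate 2 (orange) and lines for the deposited intervals. Stat6-205 (6.82 and 14.8 TPM) and Stat5b-201 (4.79 and 2.54 TPM) have intervals that do not overlap, and Stat5a-203 (2.25 and 0.300 TPM) has wide ones that do.

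Overlaps with genes on the opposite strand are uncertain, because how strand was handled in the counting is not given in the sources used here. Stat3 and Stat5a end against each other and share 72 exon bases, Stat6 shares 40 with Nab2 (12.6 TPM in replicate 1 and 11.3 in replicate 2) and Jak1 shares 4 with Raver2 (1.16 and 0.830 TPM). Tyk2 shares 554 exon bases with the antisense gene 1700084C06Rik, which had 0 counts in both libraries. Stat4 shares 1033 exon bases on its own strand with Gm28177, which had 2.03 counts in replicate 1 and 0 in replicate 2. The genes Gm3940, Gm24468 and Gm12785, inside Stat4 or Jak1, share no exon base with them and had at most 1 count in a library.

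Around the family, 9 lists of receptors, inhibitors, regulators, partners and targets held 75 genes, of which 59 were detected in both libraries. All 4 interferon receptor chains were detected: Ifnar2 (58.9 TPM in replicate 1 and 54.8 TPM in replicate 2), Ifngr1 (54.0 and 39.3 TPM), Ifnar1 (50.8 and 45.8 TPM) and Ifngr2 (19.3 and 18.2 TPM). They thus stood between 18.2 and 58.9 TPM. Of the kinases of these receptors, Tyk2 and Jak1 lay within that range in both libraries, and Jak2 (10.4 and 11.3 TPM) lay below it. Of 13 receptors of the interleukin 10, interleukin 6 and interleukin 12 families, whose signals run through Stat3 or Stat4, 9 were detected in the gene tables. The second quantification had 10, as it gave the leptin receptor gene Lepr 2.50 TPM in replicate 1 and 11.3 TPM in replicate 2. In the gene tables Lepr had 0.0800 and 0.0200 TPM. In the gene tables Il10rb (98.9 TPM in replicate 1 and 79.5 TPM in replicate 2), the shared chain of the interleukin 10 family, was the highest. Csf3r (55.5 and 78.0 TPM), the granulocyte colony stimulating factor receptor, was next, and the oncostatin M receptor gene Osmr was the lowest (0 and 0.0300 TPM).

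Of 9 common gamma chain and interleukin 4 or interleukin 13 receptor genes, 6 were detected. Il7r (38.8 TPM in replicate 1 and 42.5 in replicate 2) and the Stat6 activating chain Il4ra (45.4 and 32.1 TPM) were the highest, and Il9r was listed at 0. Of 9 beta common and homodimeric receptors, which use Jak2, 5 were detected, led by the beta chains Csf2rb (92.8 TPM in replicate 1 and 71.4 in replicate 2) and Csf2rb2 (72.2 and 66.6 TPM), near-identical copies between which reads may be divided, while the prolactin receptor gene Prlr was listed at 0. The second quantification gave Prlr 0.902 TPM in replicate 1 and 2.05 TPM in replicate 2.

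Of 8 SOCS genes, whose products block receptors and kinases and several of which STAT factors induce, 5 were detected in the gene tables. The second quantification had 6. Socs6 (40.6 TPM in replicate 1 and 36.1 in replicate 2) and Socs4 (11.2 and 11.1 TPM) were the highest and Socs1 (0.800 and 0.500 TPM) the lowest. Across the 58 listed genes that passed the count filter, 2 were more than 2-fold higher in replicate 1 and 0 in replicate 2, with a median log2 difference of 0.11, beside 1.45% and 0.469% of all genes. The median over the 6 SOCS genes that passed was 0.15. Both genes past 2-fold are SOCS genes and were named after their values were seen. Socs3, the inhibitor induced by Stat3, had 10.2 TPM in replicate 1 and 1.63 TPM in replicate 2 (log2 difference of scaled counts 2.52, and 2.39 in the second quantification). Cish, a gene induced by Stat5a and Stat5b, had 1.32 TPM in replicate 1 and 0.630 TPM in replicate 2 (log2 difference 1.12, and 0.63 in the second quantification). These differences were larger than those of any of the 8 members that passed the filter, and with 1 library on each side they have no test.

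All 4 PIAS inhibitors, which bind STAT factors in the nucleus, were detected: Pias1 (26.1 TPM in replicate 1 and 24.7 TPM in replicate 2), Pias4 (11.7 and 14.4 TPM), Pias2 (12.3 and 13.5 TPM) and Pias3 (12.6 and 12.01 TPM). All 10 phosphatases and other regulators were detected, led by Ptprc (269 TPM in replicate 1 and 259 TPM in replicate 2), the gene of the CD45 phosphatase, and Ptpn6 (44.3 and 34.9 TPM), the gene of SHP-1; Ptpn11 was the lowest (9.45 and 6.45 TPM). All 6 partners and coactivators were detected. Irf9, the DNA-binding partner of Stat2, had 1253 expected counts in replicate 1 and 771 in replicate 2 (25.005 ± 1.42 TPM), the coactivator gene Ep300 had 54.9 and 51.6 TPM, and Nmi was the lowest (5.62 and 4.61 TPM). Of 12 known target genes 10 were detected. Mcl1 (271 TPM in replicate 1 and 222 in replicate 2) and Mrc1 (202 and 183 TPM) were the highest, and Retnla, a Stat6 target of alternative activation, had 0 counts in both libraries.

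**Figure D5:**
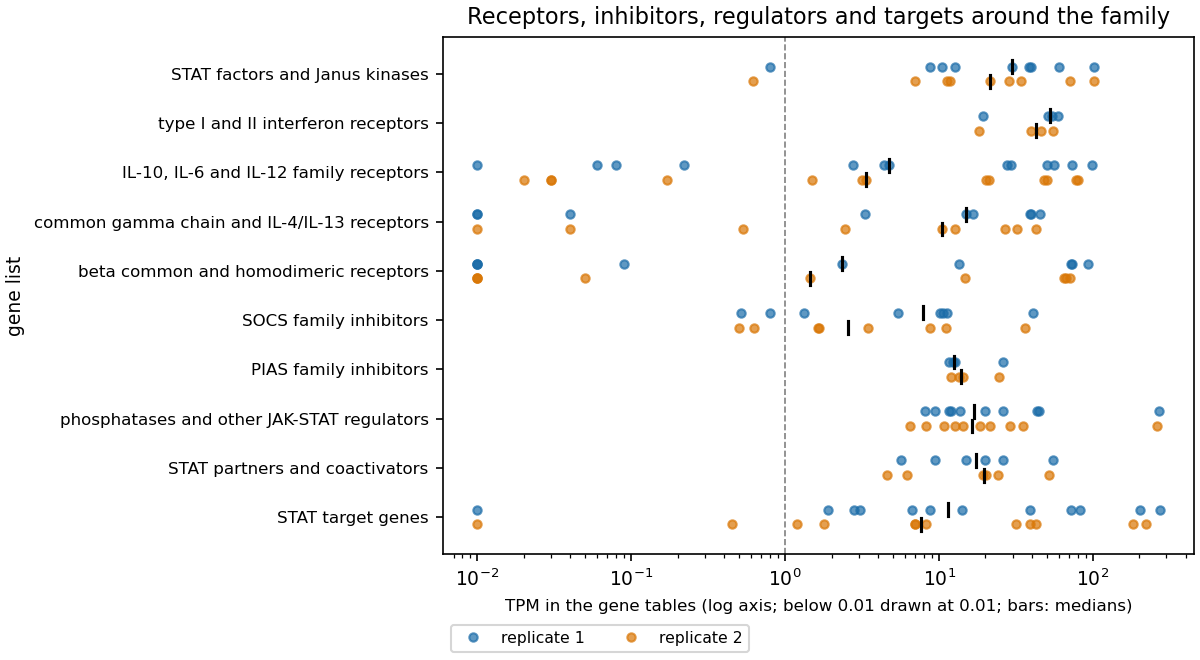
Level in TPM (log axis) of the 9 genes described and of each gene in the 9 pathway lists, in replicate 1 (blue) and replicate 2 (orange), with black bars for the medians and values below 0.01 TPM drawn at 0.01; the dashed line marks 1 TPM. The interferon receptor, PIAS, regulator and partner lists lie wholly to its right. In the SOCS list Socs3 (10.2 and 1.63 TPM) is farthest apart between the libraries and also moves the medians of the list (7.82 and 2.56 TPM). Socs2 (0.520 and 1.67 TPM) is apart in the other direction in TPM only. It had 25 expected counts in replicate 1 and 15 in replicate 2, under the count filter, so no difference of scaled counts is given for it.

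The macrophage label was checked with marker lists, and all 8 macrophage markers were detected. Lyz2 (2309 TPM in replicate 1 and 1215 in replicate 2) and Csf1r (532 and 505 TPM) led the macrophage markers, and Fcgr1 was the lowest of them (41.4 and 24.9 TPM). None of 6 B cell markers and none of 6 fibroblast and stromal markers was detected in the gene tables, with summed levels of at most 1.38 TPM in a library. Of 7 dendritic cell markers 1 was detected in the gene tables, Batf3 (4.05 TPM in replicate 1 and 2.48 in replicate 2), and Zbtb46 had 0.900 and 0.980 TPM. In the second quantification 2 were detected, with Siglech at 1.22 TPM in replicate 1 and 1.72 TPM in replicate 2.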

How the data were processed

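Per the labels, total RNA of a nuclear fraction was sequenced after ribosomal RNA depletion in 2 libraries of 1 group. For each library the authors deposited a gene table and a transcript table of 1 format and a second transcript table, on mm10 with GENCODE M21 per the text files beside them; programs and strand handling are not given in the sources used here. Expected counts, as deposited by the authors, need not be whole and were rounded for scaling alone. The authors' TPM values sum to a fixed total over all entries of a table. The interval bounds and posterior standard deviations, a signal that is never negative, were also deposited by the authors, and the bounds surround the posterior mean. Estimated counts and TPM of the second quantification were summed per gene.

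Entries that name no annotated gene, 1.18% of counts in replicate 1 and 0.405% in replicate 2, were left out. Counts were scaled with TMM factors (edgeR 4.0.16, R 4.3.3); DESeq2 1.42.0 size factors were an alternative. The log2 differences used 1 as pseudocount and genes averaging 50 scaled counts or more, and no p-value was computed because each side has 1 library. The log2 difference and the 2-fold call were tested on simulated counts with counting error alone and known library factors. The estimation of those factors and further spread between libraries were not part of that test. Without molecular identifiers, reads are not independent molecules, and intervals cover counting error alone. Models were taken from the annotation, start regions from RefSeq. Transcripts holding 10% of a gene's TPM, and the 2 highest and the lowest gene of each list, or all of a list of at most 4, were named. The members, lists and tests were chosen with earlier results of these data known. Python 3.11.15, numpy 2.4.6, pandas 2.3.3 and scipy 1.17.1 were used.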

Additional observations from a re-analysis of the deposited data

How the results depend on the processing

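Of the 9 genes, 8 were detected with posterior mean TPM, with the second quantification, at 5 TPM and in either library alone, and 9 at 0.1 TPM or after TPM was rescaled to protein-coding genes. The median level of the members, 25.6 TPM, was 84.6 TPM after that rescaling, which divides by a smaller sum, and between 21.3 and 29.97 TPM with 1 library left out. No member was more than 2-fold apart between the libraries under any scaling, pseudocount or filter tried, with medians of the log2 difference from 0.06 to 0.11. Between the quantifications 0 members were more than 2-fold apart, except that without replicate 2 there were 2, Jak2 and Tyk2, so the count ran from 0 to 2 with 1 library left out. The median share of TPM in models not annotated protein_coding, 34.0%, was 10.9% of expected counts, since TPM divides by length, 37.7% in the second quantification, and between 29.4% and 38.7% with 1 library left out. The 2 transcript models more than 2-fold apart between the libraries were 10 without the filter on low counts, an alternative chosen after seeing the data, as were the others for that count. Of the 9 single levels, 7 moved by more than the SD between the libraries in the second quantification and 9 after the rescaling. Of the 9 single shares, 7 moved so in the second quantification and 8 as shares of counts; that of Jak2 was 0 in each. The 9 single log2 differences stayed within their counting intervals under each alternative tried. No paired analysis was possible because there is 1 group. Depth limits Stat4, with 31.8 and 17.0 expected counts, and the models near 1 TPM.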
